A study of Mus musculus with 10 samples.

Results

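The genes described here release calcium from the endoplasmic reticulum or refill it. The 10 members were taken by name: the IP3 receptors Itpr1, Itpr2 and Itpr3, the ryanodine receptors Ryr1, Ryr2 and Ryr3, the SERCA pumps Atp2a2 and Atp2a3, and the store sensors Stim1 and Stim2. Of these, 8 were among the 11702 genes of the deposited gene tables. Ryr1 and Atp2a3 were not, and their counts were summed from the table of 275112 transcripts.

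RNA was sequenced in 10 retina libraries from female mice, collected at postnatal day 36 (P36) after intravitreal injections of 1 μL at P10 and P24. The rd10 DMSO group (D1 to D3, n = 3) and the rd10 halofantrine group (H1 to H3, n = 3) were of the strain B6.CXB1-Pde6brd10/J, whose Pde6b mutation affects a rod phosphodiesterase subunit, and received vehicle or 20 μM halofantrine, an antimalarial drug. The WT DMSO group (W1 to W4, n = 4) received vehicle only, and its strain is not named in the labels. The labels name 2 batches: W1 to W4, D1, D2 and H1 were in batch 1, and D3, H2 and H3 were in batch 2. All WT libraries were therefore in batch 1.

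Calcium is pumped into the endoplasmic reticulum by SERCA pumps and leaves it through channels. IP3 receptors open when a phospholipase C produces IP3 downstream of receptors such as the group I metabotropic glutamate receptors, and ryanodine receptors open to calcium itself. STIM proteins sense the fall of calcium in the store and open ORAI channels at the plasma membrane. In the retina, stores of this kind are known in photoreceptor inner segments and terminals, in inner neurons and in Müller glia, where IP3 receptors carry calcium waves.

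The tissue and the genotype were checked first. Pde6b stood at 2699, 2850 and 2855 CPM (counts scaled to library size, after TMM scaling over the 10 libraries) in W1 to W3, at 133 to 387 CPM in the DMSO group and at 125 to 373 CPM in the halofantrine group. The library labelled WT W4 stood at 93.1 CPM and so went against its label. Its summed level of 12 rod markers was 3064 CPM, beside 77980 to 82074 CPM across W1 to W3 and 3910 to 11472 CPM in the 6 rd10 libraries. The rod markers were all detected, so the material was retina. W4 was kept as labelled in the comparisons below, and the comparisons with WT were also run without it; values without it are named as such. Libraries held 15512212 to 38160436 gene counts. Nothing in the labels says whether 2 libraries of a group share a mouse or a preparation step, so p-values measure the spread between these libraries.

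Among the members, the smallest count behind a value was 79 (Atp2a3 in W2) and the largest was 20245 (Atp2a2 in D2). By mean level, Atp2a2 lay above 98.0% of the genes in the table, Ryr2 above 94.4% and Itpr1 above 81.7%. Itpr3 lay above only 5.67% of them, so its values rest on 82 to 518 counts per library.

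**Figure D1:**
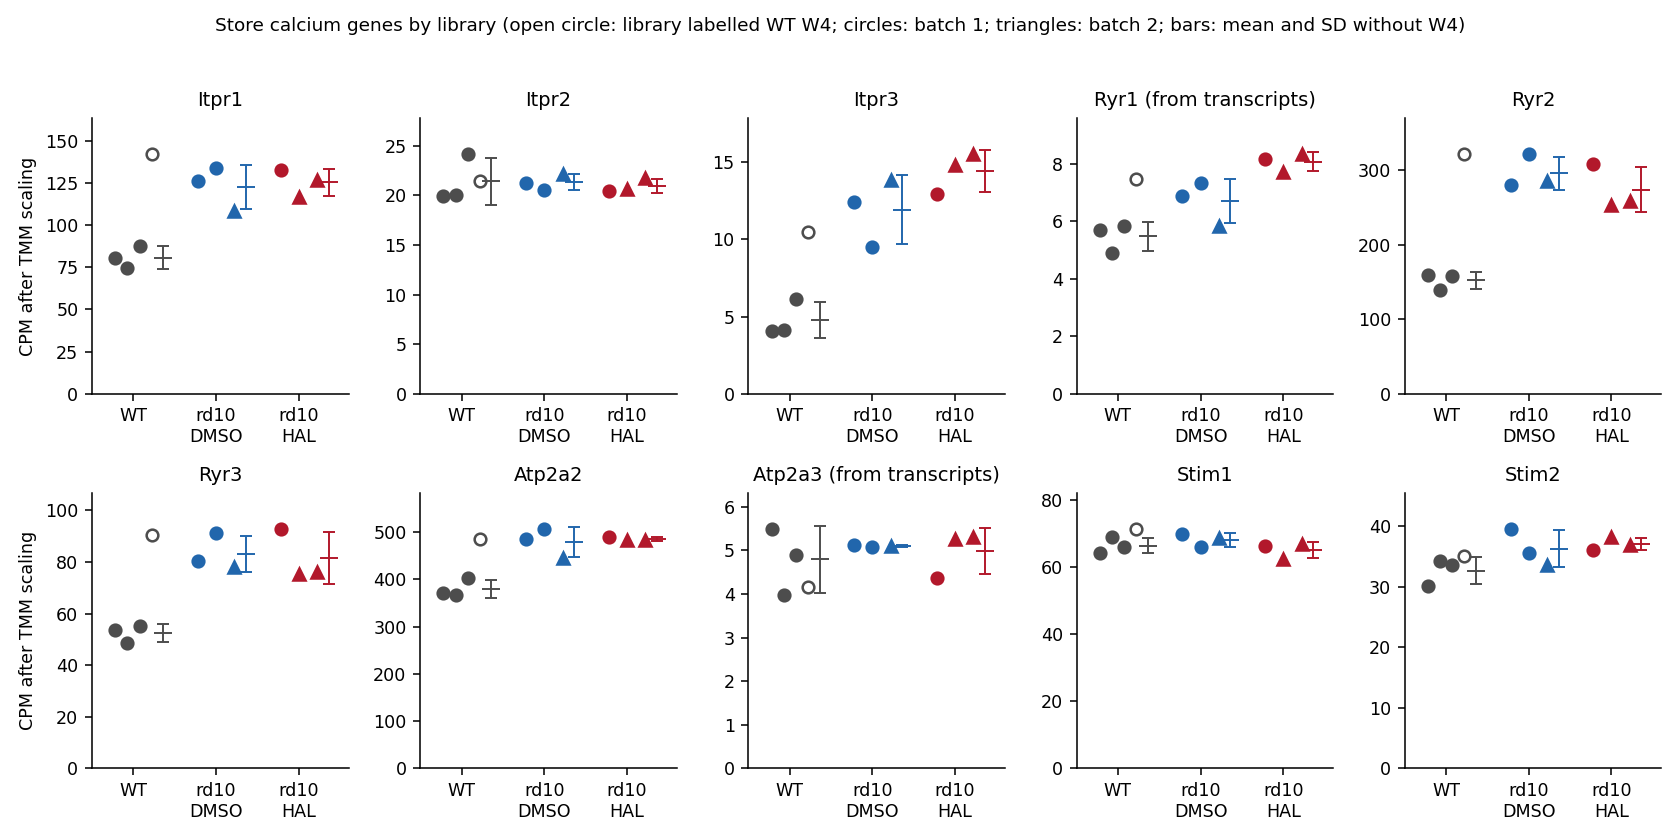
CPM of each of the 10 genes (y axis, from 0) in every library of the WT, rd10 DMSO and rd10 halofantrine (HAL) groups. Circles are batch 1, triangles batch 2, the open circle is the library labelled WT W4, and bars give the mean and SD without W4. For Itpr1, Itpr3, Ryr1, Ryr2, Ryr3 and Atp2a2 every rd10 library lies above W1, W2 and W3, and W4 lies with the rd10 libraries or above them.

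Compared per length, 1 paralog led each family. In TPM, which divides counts by transcript length before scaling to the library, Itpr1 made up 70.0% to 85.1% of the IP3 receptor level over the 10 libraries. Ryr2 made up 75.1% to 81.6% of the ryanodine receptor level, Ryr3 16.7% to 21.8% and Ryr1 1.43% to 3.14%. Atp2a2 made up 98.0% to 98.8% of the SERCA level, and Stim1 58.3% to 69.4% of the STIM level. The leading Atp2a2 transcript, Atp2a2-203, is annotated as a target of nonsense-mediated decay and not as protein coding. It held 59.9% to 72.1% of the gene's counts over the libraries, so Atp2a2 levels are not those of coding RNA alone. Atp2a1, the pump of fast skeletal muscle, was not in the gene tables, and neither was any of 10 striated muscle markers, whose summed transcript level was 3.12 to 6.21 CPM.

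The summed per-length level of the IP3 receptors was 30.5, 29.1 and 35.9 TPM in W1 to W3, 61.2 TPM in W4 and 50.2 to 61.3 TPM in the rd10 libraries. For the ryanodine receptors it was 54.0, 44.8 and 51.0 TPM in W1 to W3, 117 TPM in W4 and 97.6 to 122 TPM in the rd10 libraries. The SERCA sum was 152 to 163 TPM in W1 to W3 and 220 to 256 TPM in rd10, and the STIM sum was 67.7 to 80.9 and 85.0 to 99.8 TPM. The rd10 libraries and W1 to W3 thus did not overlap in any of the 4 sums. The share of all genes without overlap in TPM was not taken, and in CPM it was 63.7% of 11702 genes. TPM is not TMM-scaled, so these sums are on another scale than the CPM below. In CPM the rd10 libraries and W1 to W3 overlapped for Stim1 and for Stim2.

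**Figure D2:**
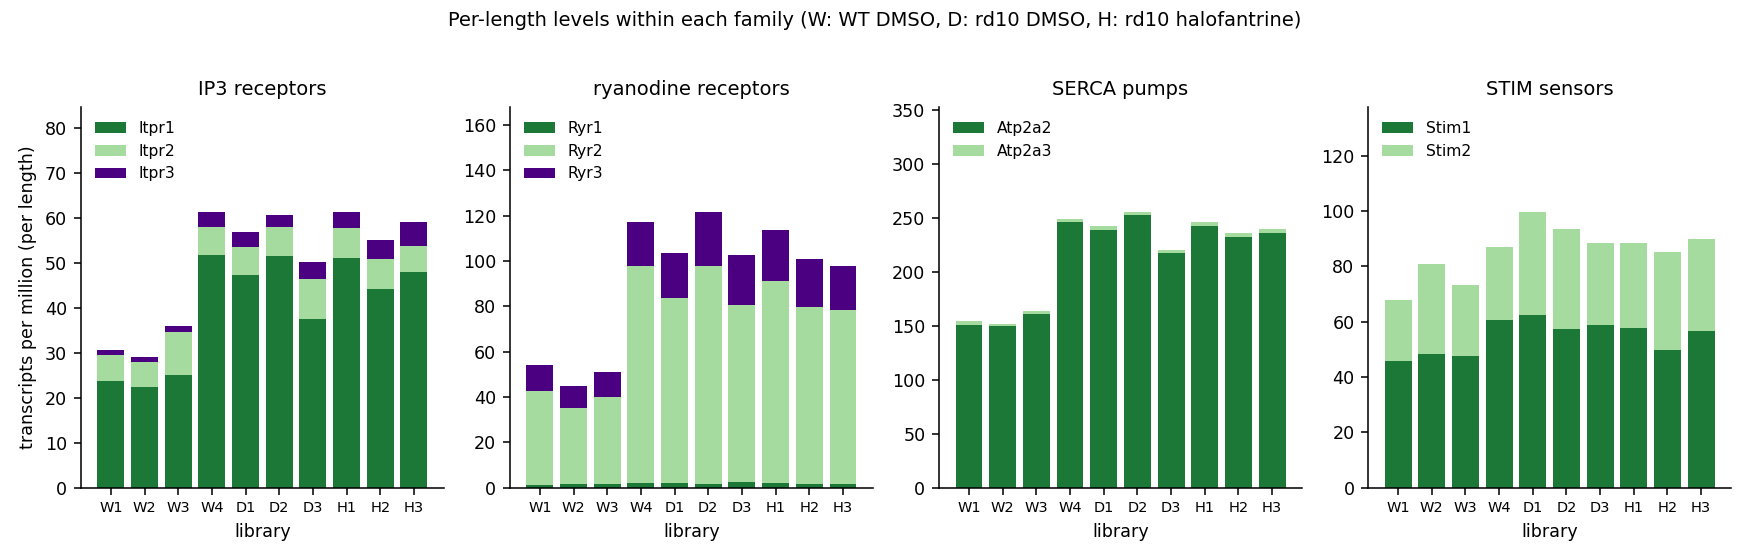
Per-length level (TPM, y axis from 0) of the genes of each family, stacked, in each library (W: WT DMSO, D: rd10 DMSO, H: rd10 halofantrine). Itpr1, Ryr2, Atp2a2 and Stim1 form the largest part of their families in all 10 libraries, and the stacks of W4 reach those of the rd10 libraries.

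The first comparison asked which of these genes differed between rd10 retinas given halofantrine and rd10 retinas given DMSO. None of the 8 members in the gene tables differed past the threshold (adjusted p under 0.05, edgeR's quasi-likelihood test, Benjamini-Hochberg over 11692 genes), and none had an unadjusted p under 0.05. Limma-voom gave 1 member at an unadjusted p under 0.05, or 2 with sample weights, and DESeq2 gave 0. Over all 11692 genes, 0 passed (0%), and 557 had an unadjusted p under 0.05 in edgeR, 598 in limma-voom and 1973 in limma-voom with sample weights; DESeq2 called 3 genes and limma-voom 0. The median log2 fold change of the 8 members was −0.004 and that of all genes tested −0.004.

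Itpr3, an IP3 receptor subtype known from epithelia, had the largest difference of the 8. Its level was 12.4, 9.48 and 13.8 CPM in D1 to D3 and 12.9, 14.8 and 15.5 CPM in H1 to H3. The halofantrine mean was higher, but H1 lay below D3, so the groups overlapped. The log2 fold change was 0.28 (SE 0.16, adjusted p = 0.883 in edgeR's quasi-likelihood test), above that of 96.2% of the genes tested. Leaving out each library in turn gave 0.14 (without D2) to 0.41 (without D3). Other settings moved the value: limma-voom gave 0.36 (adjusted p = 0.870), limma-voom with sample weights 0.53 (adjusted p = 0.201) and a GC content offset in edgeR 0.17 (SE 0.20, adjusted p = 0.995). Within batch 1 (1 halofantrine and 2 DMSO libraries) the difference in log2 CPM was 0.25, and within batch 2 (2 and 1) it was 0.13. The titles of H2 and H3 read last_rd10 and that of D3 final_rd10, so within batch 2 treatment and this title group cannot be told apart. Batch 2 against batch 1, with treatment in edgeR's quasi-likelihood model, gave Itpr3 a log2 fold change of 0.28 (SE 0.13, adjusted p = 0.205). The treatment value of 0.28 is from a fit without batch, so these values come from different models. Pigment epithelium markers, a tissue beside the retina, had a median log2 fold change of −0.78 in this comparison (3 of 7 at an unadjusted p under 0.05) and rod markers 0.18, with none of either list past the threshold in edgeR's quasi-likelihood test; their part in the Itpr3 value was not tested. Itpr3os, an antisense RNA annotated inside Itpr3, was listed at 0 in all 10 libraries.

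The other IP3 receptors lay closer together. Itpr1, the main neuronal IP3 receptor, was at 126, 134 and 109 CPM with DMSO and at 133, 117 and 127 CPM with halofantrine. Itpr2, the subtype known from astroglia and heart, was at 21.3, 20.5 and 22.1 CPM with DMSO and at 20.4, 20.7 and 21.8 CPM with halofantrine. Both pairs of groups overlapped, and the log2 fold changes were 0.03 (SE 0.09) and −0.03 (SE 0.07).

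Among the ryanodine receptors, Ryr2, known from heart and brain, was at 281, 321 and 286 CPM with DMSO and at 308, 254 and 259 CPM with halofantrine. Ryr3, a subtype known from brain, was at 80.3, 91.2 and 78.0 CPM and at 93.0, 75.4 and 76.3 CPM. The 2 lowest rd10 libraries of either gene were H2 and H3, and the groups overlapped (log2 fold change −0.11, SE 0.10, and −0.03, SE 0.10). The Ryr2 value ran from −0.048 without D2 to −0.21 without H1 and was −0.21 with limma-voom sample weights (adjusted p = 0.252). Both genes also had values below 0 for batch 2 against batch 1, as given below.

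Ryr1, the skeletal muscle subtype, was at 6.89, 7.33 and 5.85 CPM with DMSO and at 8.15, 7.70 and 8.33 CPM with halofantrine, from 95 to 292 summed transcript counts per rd10 library. In CPM it was the only member whose groups did not overlap, as was so for 13.1% of the 11702 genes in the gene table. In TPM the groups overlapped and the order of the means turned (1.94 with DMSO and 1.80 with halofantrine). Fitted as an added row, it had a log2 fold change of 0.26 (SE 0.13, adjusted p = 0.883 in edgeR's quasi-likelihood test). Atp2a3, a pump known from blood and epithelial cells, had −0.03 (SE 0.15).

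The refilling genes were close to 0 in this comparison. Atp2a2, the housekeeping pump, was at 485, 508 and 445 CPM with DMSO and at 489, 484 and 483 CPM with halofantrine (log2 fold change 0.02, SE 0.07). Stim1 was at 70.1, 66.0 and 68.8 CPM and at 66.4, 62.4 and 67.0 CPM (−0.07, SE 0.06). Stim2 was at 39.6, 35.6 and 33.6 CPM and at 36.1, 38.2 and 36.9 CPM (0.03, SE 0.08). In each of these genes the groups overlapped.

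**Figure D3:**
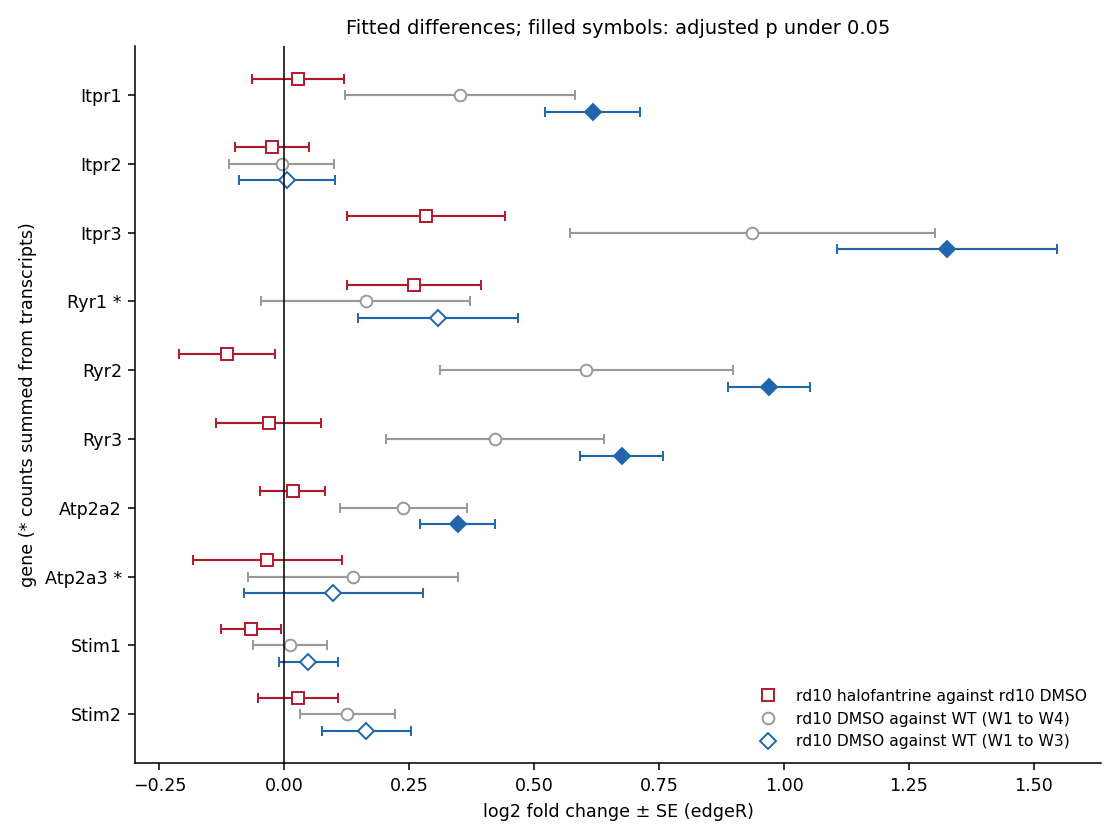
Log2 fold change with its standard error (x axis) of each gene (y axis; an asterisk marks counts summed from transcripts) for halofantrine against DMSO in rd10 and for rd10 DMSO against WT with and without W4; filled symbols have an adjusted p under 0.05. The halofantrine values lie between −0.11 and 0.28 with none filled, and 5 genes are filled for rd10 DMSO against W1 to W3.

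The second comparison, of rd10 DMSO with WT DMSO, asked how the store genes stood in the degenerated retina. With all 4 WT libraries, 0 of 11698 genes passed the threshold in edgeR's quasi-likelihood test (0%), and 0 of 8 members did, with 3108 genes and 1 member (Itpr3) at an unadjusted p under 0.05. DESeq2 called 589 genes and no member, limma-voom called 0 genes, and limma-voom with sample weights, which weight each library by its fit, called 8981 genes and 6 members. The fitted log2 fold changes were 0.94 (SE 0.36) for Itpr3, 0.60 (SE 0.29) for Ryr2, 0.42 (SE 0.22) for Ryr3, 0.35 (SE 0.23) for Itpr1 and 0.24 (SE 0.13) for Atp2a2. They were 0.13 for Stim2, 0.01 for Stim1, −0.01 for Itpr2 and, as added rows, 0.16 for Ryr1 and 0.14 for Atp2a3. Leaving out 1 library gave Ryr1 0.077 (without W2) to 0.31 (without W4) and Atp2a3 0.071 (without W2) to 0.23 (without W1).

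Without W4, 5 of the 8 members rose in rd10 and none fell: Itpr3, Ryr2, Ryr3, Itpr1 and Atp2a2. In this fit 62.2% of 11696 genes passed, and 32.3% of all genes tested were called as higher in rd10 (3778 higher and 3502 lower), so a share of 5 in 8 is near the background, while the direction was the same in all 5. The median log2 fold change was 0.48 over the 8 members and −0.01 over all genes tested, and with W4 it was 0.29 and −0.02. When libraries were scaled by size only, the split over all genes was 5409 higher and 2031 lower, the median of all genes moved to 0.19 and 7 members passed, all higher.

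Itpr3 had the largest difference of the members. It stood at 4.08, 4.13 and 6.13 CPM across W1 to W3, at 10.4 CPM in W4 and at 12.4, 9.48 and 13.8 CPM in D1 to D3. Each DMSO library was above W1, W2 and W3, and W4 lay among the rd10 values. The mean was 4.78 ± 1.17 CPM (SD, n = 3) in W1 to W3 and 11.9 ± 2.22 CPM (SD, n = 3) in rd10 DMSO. Without W4 the log2 fold change was 1.33 (SE 0.22, adjusted p = 0.00144 in edgeR's quasi-likelihood test). With W4 Itpr3 had 0.94 (SE 0.36, adjusted p = 0.187 in the same test) and did not pass. Its share of the IP3 receptor TPM was 3.16%, 4.53% and 3.92% in W1 to W3 and 4.46% to 9.09% in rd10, where only D2 fell within the range of W1 to W3.

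Itpr1 was at 80.3, 74.4 and 87.6 CPM across W1 to W3 and at 142 CPM in W4, the highest of all libraries. Every rd10 library, at 109 CPM or more, was above W1 to W3. The log2 fold change without W4 was 0.62 (SE 0.09, adjusted p = 0.000962 in edgeR's quasi-likelihood test). Itpr2, in contrast, was at 20.0, 20.1 and 24.2 CPM across W1 to W3, at 21.4 CPM in W4 and at 20.5 to 22.1 CPM in DMSO. The groups overlapped, and the log2 fold change of Itpr2 without W4 was 0.01 (SE 0.10, adjusted p = 0.965 in edgeR's quasi-likelihood test). Its share of the IP3 receptor TPM was 18.8% to 26.1% in W1 to W3 and 9.81% to 17.8% in rd10.

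Ryr2 and Ryr3 both rose without W4, and all log2 fold changes in this paragraph are from that fit. With W4 neither passed (adjusted p = 0.199 for Ryr2 and 0.21 for Ryr3 in edgeR's quasi-likelihood test). Ryr2 was at 160, 139 and 158 CPM across W1 to W3, at 322 CPM in W4 and at 281, 321 and 286 CPM in DMSO, a rise of the mean of 1.94 times over W1 to W3 (log2 fold change 0.97, SE 0.08, adjusted p = 7.12e-05). Ryr3 was at 53.8, 48.6 and 55.3 CPM across W1 to W3, at 90.6 CPM in W4 and at 80.3, 91.2 and 78.0 CPM in DMSO (log2 fold change 0.68, SE 0.08, adjusted p = 0.00033). Neither gene had a DMSO library within the range of W1 to W3. Ryr1 was at 5.69, 4.89 and 5.84 CPM across W1 to W3 and at 7.47 CPM in W4, with the DMSO value of D3 (5.85 CPM) just above W3. Its log2 fold change as an added row was 0.31 (SE 0.16, adjusted p = 0.133).

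Among the refilling genes, Atp2a2 rose without W4. Stim1 and Stim2 did not pass, although both passed as higher when libraries were scaled by size only (0.25 and 0.37). All fold changes in this paragraph are from fits without W4, and with W4 Atp2a2 did not pass. Atp2a2 was at 371, 366 and 402 CPM across W1 to W3, at 485 CPM in W4 and at 485, 508 and 445 CPM in DMSO. There was no overlap outside W4 (log2 fold change 0.35, SE 0.07, adjusted p = 0.00509 in edgeR's quasi-likelihood test). This rise is that of the whole gene, with most counts in Atp2a2-203. Stim1 was at 64.3, 69.0 and 66.2 CPM across W1 to W3 and 71.6 CPM in W4, within or beside the DMSO range (0.05, SE 0.06, adjusted p = 0.498). Stim2 was at 30.1, 34.2 and 33.7 CPM across W1 to W3 and 35.1 CPM in W4 (0.16, SE 0.09, adjusted p = 0.146), and D3, at 33.6 CPM, lay among them. Atp2a3 was at 5.50, 3.98 and 4.90 CPM across W1 to W3 and 4.16 CPM in W4, with D1 to D3 at 5.07 to 5.12 CPM inside that range (0.10, SE 0.18, adjusted p = 0.654).

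Taking all 6 rd10 libraries, 6 of the 10 members lay above W1 to W3 in every library (Itpr1, Itpr3, Ryr1, Ryr2, Ryr3 and Atp2a2), as did 31.4% of the 11702 genes in the table; 63.7% lay above or below. Because the WT libraries were all in batch 1, D1 and D2 were also set against W1 to W3 alone. The titles of batch 1 name a further set (set1 for W1 to W3, set1_5 for W4, set2 for D1, D2 and H1), so within batch 1 set and genotype cannot be told apart. The differences in log2 CPM were then 1.20 for Itpr3, 0.98 for Ryr2, 0.71 for Ryr3, 0.69 for Itpr1 and 0.39 for Atp2a2. The fitted log2 fold changes with D3 were 1.33, 0.97, 0.68, 0.62 and 0.35 in the same order. These are another measure, since log2 CPM uses a prior count of 2.

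The rise went with a changed makeup of the tissue. In the fit without W4 the median log2 fold change was −3.32 over the 12 rod markers, 0.93 over bipolar, 0.69 over amacrine, 0.44 over ganglion and 0.77 over Müller glia markers. It was 3.32 over gliosis markers, 2.21 over microglia markers and 0.75 over endothelium and pericyte markers, and 0.03 over cone markers. With W4 the median was 0.58 over bipolar, 0.46 over amacrine, 0.28 over ganglion, 0.53 over endothelium and pericyte and 0.08 over cone markers. It was −2.94 over rod, 0.52 over Müller glia, 1.69 over gliosis and 1.25 over microglia markers, and no marker of these 4 lists passed in edgeR's quasi-likelihood test, with 12, 1, 2 and 2 of them at an unadjusted p under 0.05. In the fit without W4, 62.2% of all genes passed. All 7 Müller glia, all 7 gliosis, all 8 amacrine and all 6 tested microglia markers passed there as higher, and all 12 rod markers as lower. So did 7 of 8 ganglion and 4 of 6 endothelium and pericyte markers as higher. Bipolar markers had 5 of 8 higher and 1 lower, and cone markers 2 of 8 higher and 2 lower. In bulk retina, fewer cells of a type and less RNA per cell cannot be told apart, and the part of these cell types in the members' rise was not tested.

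Pigment epithelium markers, which come from a layer beside the retina, varied within the groups, and the groups overlapped in their summed level. Their median log2 fold change was 1.55 in rd10 DMSO against W1 to W3, with 3 of 7 passing as higher, and 1.08 with W4, with none passing. Their summed level was 56.3 to 329 CPM across W1 to W3, 389 CPM in W4, 197 to 694 CPM in the DMSO group and 163 to 272 CPM in the halofantrine group. The part of this tissue in the Itpr3 values was not tested.

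RefSeq holds promoters for 7 of the 10 members in its GRCm38.p6 table. Shown are those of Itpr3 and Ryr2, the members with the largest rises in rd10 DMSO without W4. Each is 300 bases, from 250 before to 50 after the annotated start, written 5′ to 3′ on the gene's strand, and capitals mark the GC box (GGGCGG on either strand) and the E-box (CACGTG). Itpr3 lies at chr17:27057054-27057353 on the plus strand, and Ryr2 at chr13:12106896-12107195 on the minus strand.
Itpr3: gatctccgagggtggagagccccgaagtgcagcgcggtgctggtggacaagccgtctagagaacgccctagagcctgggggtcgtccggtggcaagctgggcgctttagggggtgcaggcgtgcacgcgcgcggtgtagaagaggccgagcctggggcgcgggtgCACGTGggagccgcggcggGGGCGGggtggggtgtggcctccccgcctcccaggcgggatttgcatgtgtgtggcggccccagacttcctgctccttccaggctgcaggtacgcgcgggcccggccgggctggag
Ryr2: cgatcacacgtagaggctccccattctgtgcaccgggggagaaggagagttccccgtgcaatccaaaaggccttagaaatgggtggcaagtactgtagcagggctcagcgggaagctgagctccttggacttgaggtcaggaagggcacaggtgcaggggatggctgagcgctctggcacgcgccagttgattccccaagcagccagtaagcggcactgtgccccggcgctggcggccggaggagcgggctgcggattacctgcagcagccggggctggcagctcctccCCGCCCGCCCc
The Itpr3 promoter had 72.3% GC and the Ryr2 promoter 65.3%, beside a median of 52.7% over 32851 promoters. Itpr3 held 1 GC box and 1 E-box, and Ryr2 held 2 overlapping GC boxes and no E-box. A GC box was found in 35.7% of all promoters of this length and an E-box in 7.15%. TAATCC, the letters bound by photoreceptor homeobox factors, was found on either strand once in Ryr2, not in Itpr3 and in 7.06% of all promoters, and neither promoter held TATAAA or CCAAT. These matches describe letters only.

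Halofantrine-treated rd10 retinas were also set against WT. This comparison shares the WT libraries with the one above, so the values are given side by side only. With W4, 1 of 11699 genes passed (0.00855%) and no member. The log2 fold change was 1.21 for Itpr3, 0.49 for Ryr2, 0.39 for Ryr3, 0.38 for Itpr1, 0.26 for Atp2a2 and 0.16 for Stim2. DESeq2 called 2221 genes and 1 member. In edgeR's quasi-likelihood test 1 member had an unadjusted p under 0.05, beside 4050 of all genes. Without W4, 71.9% of genes passed, 35.7% of all genes tested were called as higher in rd10, and 6 of 8 members passed, all higher. Itpr3 had a log2 fold change of 1.60 (SE 0.17), Ryr2 0.85 (SE 0.09), Itpr1 0.63 (SE 0.07), Ryr3 0.63 (SE 0.09), Atp2a2 0.35 (SE 0.06) and Stim2 0.18 (SE 0.07). Stim2 had an adjusted p of 0.0337 in edgeR's quasi-likelihood test and lost the call when W1, H2 or H3 was left out (adjusted p 0.145, 0.0752 and 0.066). Ryr1, as an added row, had 0.56 (SE 0.14, adjusted p = 0.005), and Stim1 and Itpr2 had −0.03 each. The direction of Stim1 turned with the scaling: with a GC content offset it was −0.13 (adjusted p = 0.0369), and with libraries scaled by size only it was 0.18.

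Between the batches of rd10 libraries, with treatment in the model, 4.63% of 11698 genes passed and no member did, while 3 of 8, beside 3225 of all genes, had an unadjusted p under 0.05 in edgeR's quasi-likelihood test. DESeq2 called 1419 genes and no member. Ryr3 had a log2 fold change of −0.22 (SE 0.07, adjusted p = 0.108), Itpr1 −0.19 (SE 0.06, adjusted p = 0.113) and Ryr2 −0.17 (SE 0.07, adjusted p = 0.177). In the same libraries the summed rod markers were higher in batch 2: 11472, 9740 and 8125 CPM in D3, H2 and H3 against 4141, 4286 and 3910 CPM in D1, D2 and H1. Whether the rod share had a part in these differences was not tested.

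The genes around the stores were read from 9 lists of 133 genes, 98 of them tested. In halofantrine against DMSO none of the 98 passed, and 2 had an unadjusted p under 0.05 in edgeR's quasi-likelihood test. With batch as a term 14 of the 98 did, beside 1943 of all genes, and with limma-voom sample weights 9 did, beside 1973. In rd10 DMSO against WT without W4, 57 rose and 21 fell, and the median of the 98 was 0.36 beside −0.01 over all genes tested. The counts by list that follow are from this fit without W4, in which 62.2% of all genes passed and 32.3% passed as higher, and no list was tested against other genes. With W4, none passed in edgeR's quasi-likelihood test and 25 of the 98 had an unadjusted p under 0.05, beside 3108 of 11698 genes. DESeq2 called 2 of the 98, beside 589 of 11680 genes. The medians with W4 were 0.24 over the 98, 0.43 over IP3 production and removal, −0.13 over IP3 receptor partners and 0.41 over ryanodine receptor partners. They were −0.32 over the 4 tested genes of the SERCA list and 0.44 over plasma membrane extrusion. They were 0.13 over buffers and leak channels, −0.13 over store-operated entry, 0.14 over mitochondrial uptake and 0.30 over lysosomal stores.

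Of 24 genes of IP3 production and removal tested, 19 rose and 4 fell (median log2 fold change 0.69), and Plcd3, a phospholipase C of the delta class, was among those that fell. Plcd3 was at 92.0, 92.9 and 87.3 CPM across W1 to W3, at 20.2 CPM in W4 and at 22.9, 26.1 and 26.8 CPM in D1 to D3 (log2 fold change −1.83, SE 0.08; with W4 −1.53). The partners that bind the IP3 receptors were divided, with 4 of 17 higher and 8 lower (median −0.19). Homer2, a scaffold that ties metabotropic glutamate receptors to IP3 receptors, rose from 31.9 to 35.3 CPM across W1 to W3 to 58.1 to 63.5 CPM in DMSO (0.88, SE 0.07; with W4 0.61).

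Of 10 ryanodine receptor partners tested, 8 rose and none fell (median 0.61). Sri, which encodes sorcin, a calcium-binding protein that acts on ryanodine receptors, was at 16.9 to 17.8 CPM across W1 to W3, at 35.2 CPM in W4 and at 33.2 to 36.8 CPM in DMSO (1.02, SE 0.07; with W4 0.68). Of the SERCA paralogs and regulators listed, only Atp2c1, Tmx1, Selenok and Vmp1 were tested. Of these 4, 3 were lower and none higher (median −0.40). Atp2a1, Pln, Sln, Mrln and Strit1 were not in the gene tables, so no SERCA paralog on this list was tested. Among buffers and leak channels of the endoplasmic reticulum, 8 of 16 rose and 3 fell (median 0.18). Pkd2, polycystin 2, a channel of this membrane and of cilia, had 0.79 (SE 0.06; with W4 0.51), and Nucb2, a calcium-binding protein, had −1.22 (SE 0.10; with W4 −0.98).

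Of the genes that move calcium out of the cell, all 7 tested genes of plasma membrane extrusion passed as higher (median 0.66). They are the calcium pumps Atp2b1 to Atp2b4 and the sodium-calcium exchangers Slc8a1 to Slc8a3, which were named after their values were seen. The range ran from 0.38 (SE 0.08) for Atp2b1 to 0.91 (SE 0.08) for Slc8a1, which with W4 were 0.31 and 0.56. Slc8a2 had 0.44 (SE 0.16, adjusted p = 0.0403 in edgeR's quasi-likelihood test) and lost the call in 5 of 6 fits that left out 1 library, with W1, W2, W3, D1 or D2 left out (adjusted p 0.0794 to 0.119). Slc8a1 was at 145, 128 and 147 CPM across W1 to W3 and at 254, 284 and 247 CPM in D1 to D3.

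Store-operated entry was divided, with 2 of 6 tested genes higher and 2 lower (median −0.15). Trpc1, a channel subunit of the TRPC family, was at 151, 138 and 156 CPM across W1 to W3, at 50.7 CPM in W4 and at 55.4, 56.8 and 57.9 CPM in DMSO (−1.37, SE 0.06; with W4 −1.13). Of 11 genes of mitochondrial uptake 7 rose and 1 fell (median 0.20), and of 3 genes of lysosomal stores 2 rose (median 0.54).

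**Figure D4:**
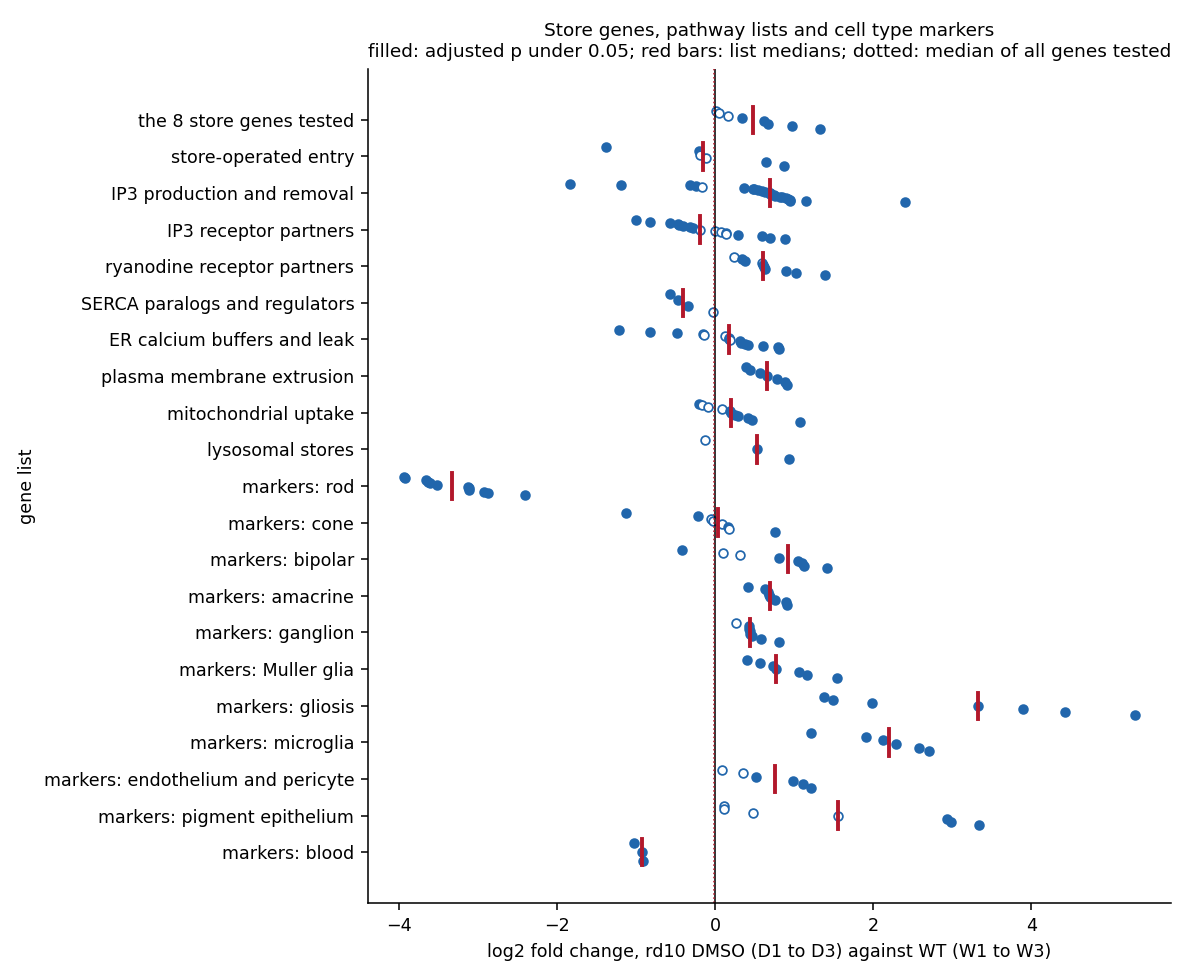
Log2 fold change of rd10 DMSO against W1 to W3 (x axis) for the 8 store genes tested, the 9 pathway lists and the cell type markers (y axis); each circle is 1 gene, filled where adjusted p is under 0.05, and red bars are list medians. The store genes have a median of 0.48, plasma membrane extrusion 0.66 and ryanodine receptor partners 0.61, beside −3.32 for rod markers.

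As a description, the genes whose log2 CPM followed each member most closely over the 10 libraries were found by Pearson's r. These 10 points share the split between W1 to W3 and the other libraries, so r mostly reads that split. For Itpr1 they were Map1a (r = 0.995), Kif1a and Pcdh7, and for Atp2a2 Aldh5a1 (0.993), Trerf1 and Zdhhc9. For Ryr2 they were Kcnj6 (0.997), Fam135b and Igsf9b, and for Ryr3 Vwa8 (0.994), Igsf9b and Ryr2 itself (0.991). Itpr3 was followed by Egfr, the epidermal growth factor receptor (0.985), Nin and Ppp1r1a. Egfr was at 18.9, 20.7 and 26.3 CPM across W1 to W3, 50.0 CPM in W4, 52.0 to 57.5 CPM in DMSO and 55.9 to 67.1 CPM with halofantrine. The members with little difference between groups had weaker neighbours: Itpr2 with Naa50 (0.866), Stim1 with Kif5b (0.898) and Stim2 with Egfl7 (0.948).

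The share of each member's counts in its leading transcript was compared by an exact permutation test over libraries. None of 10 members passed after adjustment, or at an unadjusted p under 0.05, for rd10 DMSO against WT with or without W4 or for halofantrine against DMSO. The smallest possible exact p was 0.0286 for 3 against 4 libraries and 0.1 for 3 against 3, so the latter design could not pass. The members below were chosen after their values were seen.

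For Itpr2, whose total did not differ, the longer transcript Itpr2-202 held 96.2%, 83.1% and 91.4% of the counts in W1 to W3, 73.7% in W4, 62.3%, 67.4% and 66.1% in D1 to D3 and 73.6%, 83.0% and 77.6% in H1 to H3. The shorter Itpr2-201 held 0.0%, 13.6% and 0.0% in W1 to W3, 23.5% in W4, 27.4% to 35.0% in DMSO and 11.5% to 22.9% with halofantrine. The DMSO libraries did not overlap either other group for Itpr2-202, as was so for 2.67% of 10347 leading transcripts (8.22% for DMSO and WT, 13.4% for DMSO and halofantrine). For Itpr2-202 the tests gave these values (difference from WT −20.9 percentage points, two-sided exact p = 0.0571; without W4 −25.0, exact p = 0.1; halofantrine minus DMSO 12.8, exact p = 0.1). After adjustment over the 10 members these were 0.571, 0.5 and 0.5 (exact permutation tests). Itpr2 had 360 to 819 counts per library, and assigning reads between overlapping transcripts is an estimate.

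Stim1-201 held 54.4%, 43.0% and 47.4% of Stim1 counts in W1 to W3, 67.3% in W4 and 61.7% to 70.0% in DMSO (difference without W4 16.3 percentage points, exact p = 0.1, adjusted p = 0.5). In the halofantrine group it held 53.2% to 67.5%, overlapping the DMSO group. Ryr1-208 held 75.4%, 92.1% and 86.4% in DMSO and 93.3%, 97.5% and 93.6% with halofantrine (difference 10.2 percentage points, exact p = 0.1, adjusted p = 0.5). Estimates for Ryr3 moved widely within groups: Ryr3-211 held 73.3%, 9.72% and 4.83% in W1 to W3. The leading transcript of Ryr2, Ryr2-201, held 83.2% to 87.5% in all libraries.

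**Figure D5:**
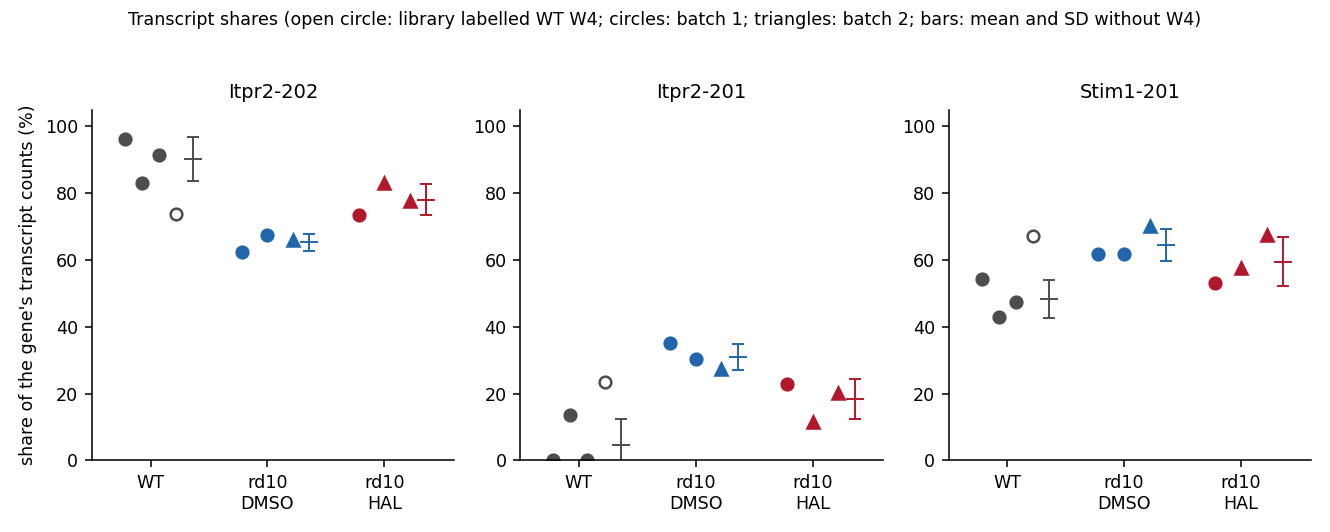
Share of the gene's transcript counts (%, y axis from 0) held by Itpr2-202, Itpr2-201 and Stim1-201 in every library of the WT, rd10 DMSO and rd10 halofantrine (HAL) groups; symbols as in the plot of levels. For Itpr2-202 the DMSO libraries, at 62.3% to 67.4%, lie below all WT and halofantrine libraries.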

How the data were processed

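Libraries were made by the authors with a stranded kit, quantified with kallisto against a mouse Ensembl transcriptome and summarised to genes; the submitters' processing notes name kallisto, edgeR, limma and GRCm39. The strand setting of the counting is not given in the sources used here. The deposited gene and transcript tables hold estimated counts, of which 51.4% were whole numbers in the gene table. A deposited table of normalised values (signal: gene counts scaled by 1 factor per library, by the authors) was used only to check the counts. A table of the authors' own comparison, with fold changes, average expression and p-values, was not used.

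Groups and batches were taken from the labels. The chi-square per gene between pairs of libraries in 1 group was 4.48 to 48.2 without W4. Between W4 and each of W1 to W3 it was 421 to 431. Each library was counted separately. Estimated counts were rounded, filtered (filterByExpr), scaled by TMM and tested with edgeR 4.0.16's quasi-likelihood test in R 4.3.3 (Benjamini-Hochberg, threshold 0.05), with only the groups compared in each fit. Levels are CPM after TMM, and log2 CPM uses a prior count of 2. Standard errors are the log2 fold change divided by the root of the F statistic. Ryr1 and Atp2a3 were added to the fits as rows summed from transcripts. Depth was 15512212 to 38160436 gene counts per library. TPM came from transcript counts and lengths. The scripts were tested on simulated data. Alternatives were DESeq2 1.42.0, limma 3.58.1 voom with and without sample weights, no filter, library size only, a GC content offset (lowess span 0.3, 98.2% of genes with a value), leaving out each library, a batch term, 1 fit over all libraries, and batch 1 alone.

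The text names the 10 members, Pde6b and the 3 genes most correlated with each member. It names up to 3 pathway genes per direction with the smallest p past the threshold. Outside this rule it names the 7 genes of plasma membrane extrusion, after their values were seen, Itpr3os and genes of the SERCA list. The members and lists were chosen with earlier results of these data known. The comparisons without W4 under the other alternatives, and the added rows, were chosen after seeing the data; leaving out W4 once, and W1 to W3 in 1 fit over all libraries or in batch 1, were planned.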

Additional observations from a re-analysis of the deposited data

Results flagged for a closer look

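Ryr2 and Ryr3 were singled out because 1 of the 4 WT libraries, the library labelled W4, stood far from the others. Its gap to the nearest library was 0.887 of the range for Ryr2 and 0.842 for Ryr3, beside a critical value of 0.829 for 4 samples. All 10 members were examined in this way, and chance passes this limit in about 1 in 20 groups. In these libraries 29% of the 11702 genes passed it, so 2 of 10 is no result about these genes.

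Ryr3 was also singled out because halofantrine minus DMSO in log2 CPM was 0.12 in batch 1, where H1 was above D1 and D2, and −0.040 in batch 2, where H2 and H3 were below D3. The difference between batches was not tested, and in batch 2 the titles of H2 and H3 differ from that of D3 in the same way as the treatment, so the 2 cannot be told apart.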

How the results depend on the processing

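No paired analysis was possible because the replicate numbers only name libraries within a group and no label ties a number to a shared animal, litter or day across groups. For rd10 DMSO against WT, 0 members passed, but 6 with limma-voom sample weights, 5 with all libraries in 1 fit and W1 to W3, 6 with batch 1 and W1 to W3, and 0 to 5 when 1 library was left out (5 without W4). Pathway genes went from 0 to 2 (DESeq2), 85, 81 and 85 in the same settings, and 0 to 78 with 1 library left out (78 without W4). Over all genes, sample weights called 8981 of 11698 and 1 fit with W1 to W3 called 7753 of 11700. Batch 1 with W1 to W3 called 8460 of 11698, and leaving out W4 called 7280 of 11696. The member counts are thus near the background of their fits. For halofantrine against WT, 0 members became 1 (DESeq2), 6 (sample weights), 5 (1 fit and W1 to W3) and 0 to 6 with 1 library left out (6 without W4). Over all genes these settings called 2221 of 11677 (DESeq2), 9013 of 11699 (sample weights) and 7787 of 11700 (1 fit and W1 to W3). Leaving out W4 called 8408 of 11699. Gene counts also moved: 0 to 589 (DESeq2) and 8981 (sample weights) for DMSO against WT, and 542 to 1419 and 145 for batch, or 91 (without D3) to 2638 (without H1). For halofantrine against DMSO the count was 7 without D2 and 1 without D1, with 0 members each. Without W4, DMSO against WT gave 3743 higher and 4133 lower with the GC offset, and 5 to 6 members with 1 library left out (6 without D3, where Stim2 had 0.21, adjusted p = 0.0399 in edgeR's quasi-likelihood test).

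Among members and named genes, directions turned for values near 0, and for Itpr2 and Stim1 against WT with library size. For halofantrine against DMSO, sample weights gave Itpr1 −0.061, Itpr2 0.026 and Atp2a2 −0.035, and a batch term gave Ryr3 0.038. For DMSO against WT, Itpr2 was 0.0062 (DESeq2), 0.0064 (sample weights) and 0.15 (library size), and Stim1 −0.031 (GC offset). Without W4 the GC offset gave Itpr2 −0.044 and Stim1 −0.029. For halofantrine against WT, Itpr2 was 0.040 (sample weights) and 0.12 (library size) and Stim1 0.090 (library size). Without W4 these were 0.045, 0.18 and 0.18. For batch, Stim1 was 0.049 (GC offset). Leaving out 1 library gave, for halofantrine against DMSO, Atp2a2 −0.029 to 0.064, Atp2a3 −0.077 to 0.048, Itpr1 −0.048 to 0.10, Itpr2 −0.049 to 0.0073, Ryr3 −0.14 to 0.044 and Stim2 −0.016 to 0.10. For DMSO against WT it gave Itpr2 −0.038 to 0.060 and Stim1 −0.015 to 0.048, and without W4 Itpr2 −0.052 to 0.10 and Atp2a3 −0.017 to 0.22. For halofantrine against WT it gave Itpr2 −0.062 to 0.032, and without W4 Itpr2 −0.076 to 0.066 and Stim1 −0.052 to 0.010. For batch it gave Stim1 −0.038 to 0.016 and Stim2 −0.16 to 0.055. The causes were not tested. Low counts limit Itpr3, Ryr1 and Atp2a3.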
